A study of Homo sapiens with 12 samples.

Results

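RGS proteins are the regulators of G protein signalling, and 10 of their genes were followed across IMR32 cells in which MYCN, HAND2 or both had been knocked down. The genes are RGS2, RGS3, RGS4, RGS5, RGS7, RGS10, RGS12, RGS14, RGS16 and RGS17, 10 of the 27514 genes listed in the deposited table. They were found by gene symbol, and the group was chosen by a result of these data: among the 12680 genes tested, RGS4 had the most negative interaction between the knockdowns. RGS4 and all interaction values are therefore described without a test, and the other 9 genes are tested in 6 comparisons between groups. Those comparisons use the same samples as the interaction, and the members were chosen with earlier results of these data known.

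IMR32 cells are an established line from a human neuroblastoma, with MYCN amplified. RNA was sequenced 72 h after the siRNAs were delivered by electroporation with a Nucleofector, in 4 groups of 3 samples. The groups were a control siRNA (siCTR in the labels, siCtrl here), an siRNA against MYCN (siMYCN_2), an siRNA against HAND2 (siHAND2_3), and the double knockdown with both (siM2+siH2_3). All groups were grown in the same medium and carried no other agent in the labels. The samples come from a single line with a single siRNA label per target, and nothing says that the samples of a group came from separate cultures, so p-values measure only the spread between these samples, which may be technical.

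A heterotrimeric G protein is switched on when a receptor makes its alpha subunit exchange GDP for GTP, which frees the alpha subunit from the beta-gamma pair, and both parts then act on effectors. RGS proteins bind the active alpha subunit and speed up its GTP hydrolysis, which ends the signal. They are grouped by sequence into the R4 subfamily of mostly small proteins (RGS2, RGS3, RGS4, RGS5 and RGS16 here), the R7 subfamily that works bound to the beta subunit GNB5 (RGS7), the R12 subfamily (RGS10, RGS12 and RGS14) and the RZ subfamily (RGS17). MYCN and HAND2 are basic helix-loop-helix transcription factors that bind E-boxes, sites of the form CANNTG. MYC family proteins with their partner MAX favour CACGTG, and HAND2 with E proteins has been described at CATCTG and related sites.

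RefSeq promoter windows of GRCh38.p14, the 250 bases before each listed start on the gene's strand, were found for 10 of the 10 genes, 26 windows in all. The windows of RGS4, RGS16 and RGS10 are shown because RGS4 and RGS16 had the largest differences from siCtrl below and RGS10 was the one gene of the 10 called lower than siCtrl on the deposited scale, with capitals marking CANNTG and TATAAA on either strand. RGS4 has 4 listed starts, and which start these cells used is not known from a table of gene totals. The RGS4 window before its second listed start lies at chr1:163069004-163069253 (plus strand), that of RGS16 at chr1:182604390-182604639 (minus strand), and that of the first listed start of RGS10 at chr10:119542720-119542969 (minus strand).
RGS4, start 2: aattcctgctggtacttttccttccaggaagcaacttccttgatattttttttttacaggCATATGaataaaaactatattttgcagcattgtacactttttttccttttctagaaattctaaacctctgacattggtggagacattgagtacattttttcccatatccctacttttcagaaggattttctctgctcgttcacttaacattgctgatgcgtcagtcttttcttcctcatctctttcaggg
RGS16: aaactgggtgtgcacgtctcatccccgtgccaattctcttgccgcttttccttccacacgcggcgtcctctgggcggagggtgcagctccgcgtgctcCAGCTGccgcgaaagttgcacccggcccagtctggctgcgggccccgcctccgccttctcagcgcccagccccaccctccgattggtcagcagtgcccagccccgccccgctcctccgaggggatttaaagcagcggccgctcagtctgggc
RGS10, start 1: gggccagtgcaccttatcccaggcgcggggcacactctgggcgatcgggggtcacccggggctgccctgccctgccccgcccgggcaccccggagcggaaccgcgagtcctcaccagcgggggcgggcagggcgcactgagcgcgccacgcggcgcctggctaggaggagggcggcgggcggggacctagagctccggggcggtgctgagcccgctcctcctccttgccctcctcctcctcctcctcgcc
The RGS4 and RGS16 windows shown each held a single CANNTG, with the inner letters and flanks differing between them, and the RGS10 window shown held none. Other listed starts differed from these: RGS4 start 3 held no CANNTG, and RGS10 start 2 held CATCTG. RGS4 starts 1 and 4 held CATGTG and CATTTG. For RGS4 and RGS10, CANNTG was thus present before some listed starts and absent before others. Any link between these sites and the changes in RNA was not tested.

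CANNTG was present in 18 of the 26 windows, from 8 of the 10 genes, and in 61.8% of all 35116 RefSeq windows of the same length. CACGTG was present in 3 windows of 2 genes, RGS3 and RGS7, and in 6.34% of all windows. CATCTG or its reverse complement CAGATG was present in 3 windows, of RGS3, RGS5 and RGS10, and in 12.2% of all windows. TATAAA on either strand was present in 2 windows, of RGS4 and RGS3, and in 10.7% of all windows. All 3 of these E-box sequences are forms of CANNTG, so the counts overlap. The sites below are shown with 30 bases each because they are the CACGTG matches and the RGS4 TATAAA match, in capitals. They lie at chr9:113536440-113536469 (RGS3, plus strand), chr1:241357243-241357272 (RGS7, minus strand) and chr1:163069319-163069348 (RGS4, plus strand).
RGS3, start 4: ctctgggcttccCACGTGctccctcagctg
RGS7, starts 1 and 3: acgcccctgtccCACGTGactgtcccctcc
RGS4, start 3: tcgtagctgggcTATAAAagagacccctac
The RGS7 windows of starts 1 and 3 overlap and hold the same site. A match describes the letters in the window and says nothing of binding.

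Library depth, estimated from the smallest step between low values, was 31.6 to 64.2 M reads, and 3 reads correspond to 0.0467 to 0.095 CPM (read counts scaled to 1 M reads), which covers counting error only. The listed genes took 64.3 to 65.8% of the reads in siCtrl, 61.3 to 63.3% in siMYCN and 56.8 to 61.4% in siHAND2. In the double knockdown they took 58.4, 51.4 and 44.3% in replicates 1, 2 and 3, an even spread in which replicates 2 and 3 lay below every sample of the other groups. The deposited CPM scale is relative to all reads, and the median log2 change over all tested genes was 0.01, -0.14 and -0.28 in siMYCN, siHAND2 and the double knockdown against siCtrl. Member results are therefore also given after each sample was rescaled by its median ratio to the other samples, which put those medians at 0.01, 0.01 and 0.05. MYCN RNA fell from 1009 ± 42.6 CPM in siCtrl to 682 ± 22.8 in siMYCN and 482 ± 64.3 in the double knockdown (SD, n = 3 each), and HAND2 RNA from 239 ± 15.3 to 62.3 ± 7.06 in siHAND2 and 73.5 ± 11.1 in the double knockdown. HAND2 rose to 326 ± 7.50 CPM in siMYCN. The 12 noradrenergic neuroblastoma markers include MYCN and HAND2, so their sum falls with the targets themselves. They summed to 1754 to 1870 CPM in siCtrl, 1737 to 1802 in siMYCN, 1555 to 1693 in siHAND2 and 1023 to 1464 in the double knockdown. Of the 11 tested markers, 4 were called higher and 4 lower in the double knockdown, beside 17.4% and 50.1% of all tested genes. The 9 fibroblast and mesenchymal markers summed to 211 to 231 CPM in siCtrl, 255 to 278 in siMYCN, 108 to 148 in siHAND2 and 66.2 to 107 CPM in the double knockdown, with PRRX1 listed at 0 throughout, and their part in the results below was not tested. The 7 blood cell markers summed to at most 0.985 CPM, with CD3E and HBB listed at 0 throughout.

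All 10 genes passed the filter of a mean of at least 1 CPM over the 12 samples. RGS16 passed it through the siHAND2 and double knockdown groups, since its siCtrl mean was 0.824 CPM and its siMYCN mean 0.541 CPM. Per kilobase of annotated exon (GENCODE release 44 on GRCh37), RGS10 had the highest siCtrl level at 9.85 ± 1.19 CPM per kb, followed by RGS2 at 7.43 ± 0.743 (SD, n = 3 each). The ranges of these neighbours in the order did not overlap. RGS12 followed at 1.65 ± 0.0388 CPM per kb and RGS3 at 0.873 ± 0.0194. The other 6 genes lay between 0.319 ± 0.0624 (RGS4) and 0.435 ± 0.0572 CPM per kb (RGS14), and each overlapped its neighbour in the order. In siMYCN, RGS4 stood at 2.91 ± 0.188 CPM per kb, below RGS2 at 6.49 ± 0.402 and RGS10 at 5.89 ± 0.417, and above RGS12 at 2.24 ± 0.056. Exon length is that of all annotated transcripts together, so a gene with long unused exons reads low on this scale.

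**Figure D1:**
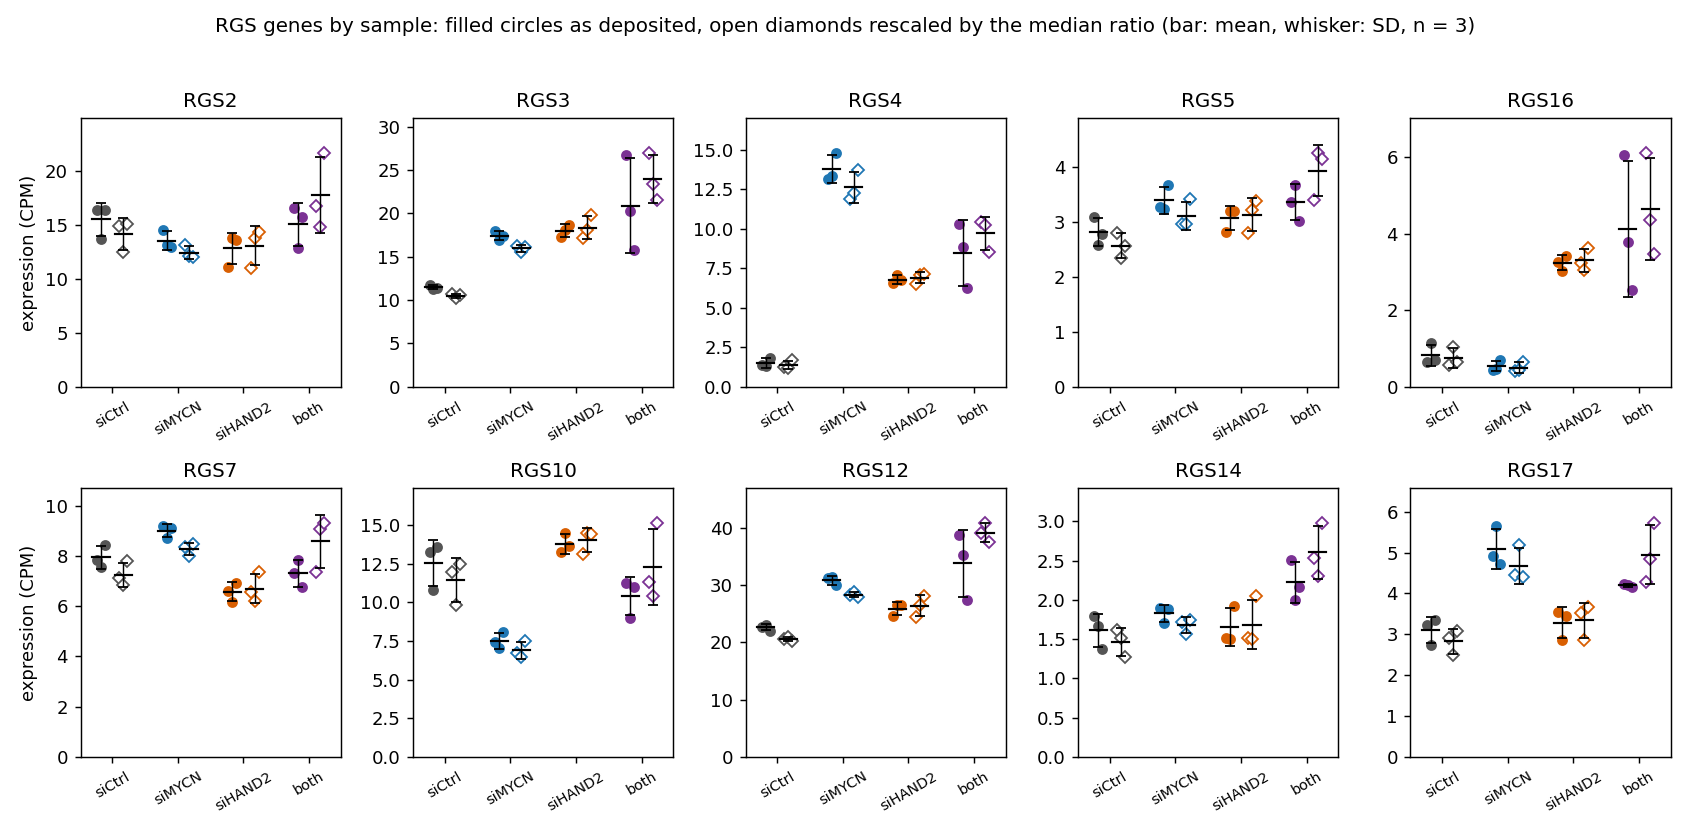
Expression of the 10 RGS genes (CPM, axes from 0) in the 3 samples of each group, as deposited (filled circles) and rescaled by the median ratio (open diamonds), with the mean (bar) and SD (whisker). RGS4 goes from 1.51 CPM in siCtrl to 13.8 in siMYCN, 6.78 in siHAND2 and 8.46 in the double knockdown, RGS16 is high in the siHAND2 and double knockdown groups, and RGS10 is lowest in siMYCN.

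RGS4 was several-fold higher in each knockdown than in the control, and the double knockdown lay between the single ones. RGS4 encodes a small R4 protein of neurons and heart that acts on the Gi/o and Gq families and whose protein is short-lived. The gene lies on chromosome 1 at 163038396 to 163046593 of GRCh37, plus strand. Its siCtrl samples were at 1.35, 1.32 and 1.85 CPM (1.51 ± 0.295, SD, n = 3). The siMYCN samples were at 13.1, 13.4 and 14.8 CPM (13.8 ± 0.888), 9.13-fold the siCtrl mean. The siHAND2 samples were at 6.55, 7.06 and 6.74 CPM (6.78 ± 0.259), 4.50-fold the siCtrl mean. The samples of siCtrl, siHAND2 and siMYCN did not overlap with each other. In the double knockdown the values were 10.3, 8.86 and 6.22 CPM (8.46 ± 2.07), 5.61-fold the siCtrl mean. These were all below the siMYCN samples and overlapped with the siHAND2 samples. The low one, at 6.22 CPM, was replicate 3, whose listed genes took 44.3% of its reads. After rescaling the double knockdown samples were at 10.4, 10.2 and 8.53 CPM, all above the siHAND2 samples at 6.50 to 7.14 and all below the siMYCN samples at 11.9 to 13.7. In bulk samples, a change in RNA per cell and a change in the share of cells that express the gene cannot be told apart.

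On the log2(CPM + 1) scale RGS4 differed from siCtrl by 2.56 in siMYCN, 1.64 in siHAND2 and 1.90 in the double knockdown (SE 0.13 each). The single changes sum to 4.20, so the interaction, which is the combined change minus that sum, was -2.31 (SE 0.19). Put another way, siHAND2 was associated with a change of 1.64 with the control siRNA and of -0.66 on top of siMYCN. The next most negative interactions were those of MAOA at -1.78, CALB1 at -1.73, TRIL at -1.66, NRP1 at -1.63 and STMN2 at -1.54. These values chose the group and carry no test. Over all tested genes, 3.65% had a called interaction below 0 and 0.355% above 0, where called means an adjusted p under 0.05. Rescaled, the RGS4 interaction was -2.09 and was again the most negative. Without the double knockdown replicate 3 it was -2.12, the double knockdown stood 0.48 below siMYCN rather than 0.66 below it, and 0.44 above siHAND2 rather than 0.26. Without its replicate 1 these values were -2.45, 0.81 below siMYCN and 0.12 above siHAND2. The interactions of the other 9 genes, also without a test, lay between -0.39 (RGS3) and 0.45 (RGS16), with RGS17 at -0.29 and RGS2 at 0.40. Rescaled, they lay between -0.20 (RGS3) and 0.59 (RGS16), with RGS17 at -0.12 and RGS2 at 0.57. The median interaction over all tested genes was -0.18 as deposited and -0.009 rescaled.

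**Figure D2:**
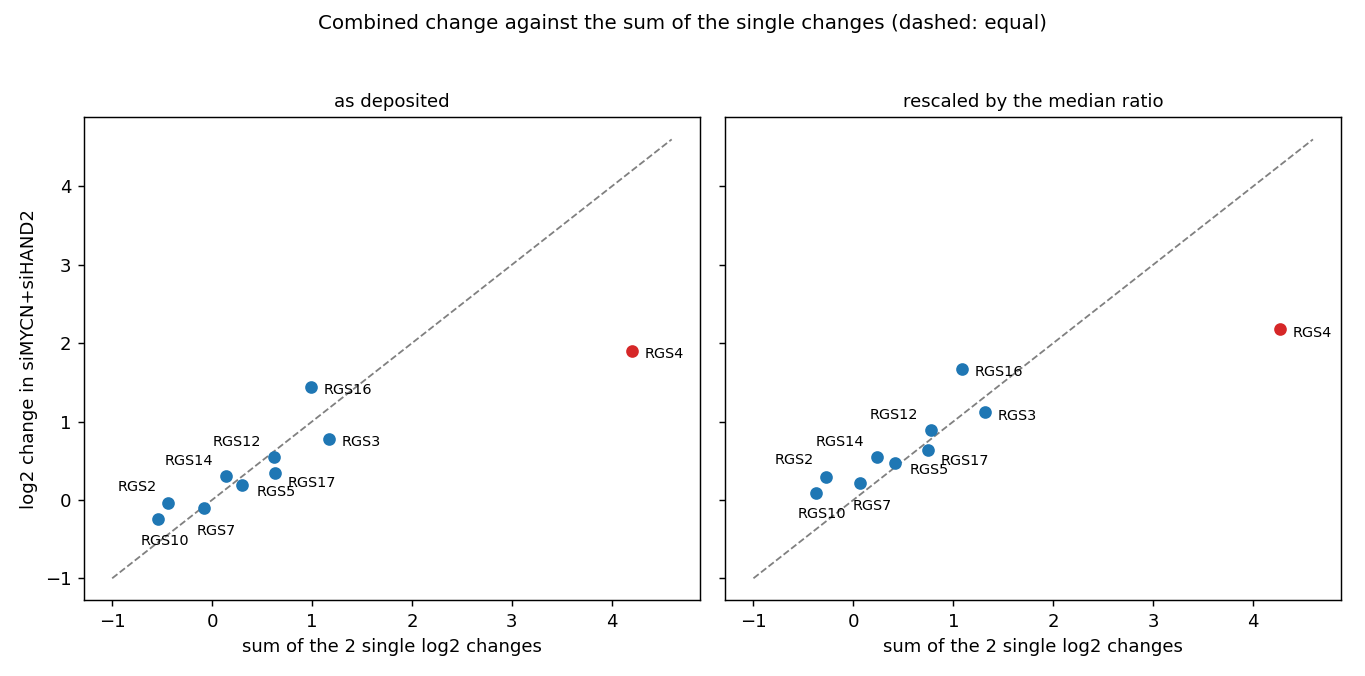
The log2 change in the double knockdown against siCtrl (vertical) plotted against the sum of the changes in the single knockdowns (horizontal) for the 10 RGS genes, as deposited (left) and rescaled (right), with the dashed line where the quantities are equal. RGS4 lies far below the line, at a sum of 4.20 and a combined change of 1.90 as deposited, and the other 9 genes depart from it by -0.39 to 0.45 in the left panel.

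The other R4 genes differed in which knockdown moved them. RGS16, a small R4 protein that acts on the Gi/o and Gq families, was higher in siHAND2 and in the double knockdown and did not pass the test in siMYCN. The gene lies on chromosome 1 at 182567758 to 182573549, minus strand. Its siCtrl samples were at 0.633, 1.14 and 0.697 CPM and its siMYCN samples at 0.449, 0.469 and 0.706 CPM. Those groups overlapped. The siHAND2 samples were at 3.26, 3.03 and 3.43 CPM (3.24 ± 0.200) and the double knockdown samples at 6.05, 3.78 and 2.54 CPM (4.12 ± 1.78). All 6 of these values were above every siCtrl and siMYCN sample. The log2 change against siCtrl was 1.23 in siHAND2, 1.44 in the double knockdown and -0.24 in siMYCN (SE 0.17 each). Because RGS16 passed the filter on low values only through the groups where it is high, its p-values are given from limma on all listed genes with no filter, where the adjusted p was 0.00571 in siHAND2, 9.5e-04 in the double knockdown and 0.711 in siMYCN. In the same fit siMYCN was below siHAND2 (log2 change -1.46, adjusted p = 0.00325). The double knockdown was not shown to differ from siHAND2 (log2 difference 0.22, 95% interval -0.13 to 0.57, adjusted p = 0.707). That difference rested on single libraries: it was 0.45 without the double knockdown replicate 3 and -0.04 without its replicate 1.

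RGS8 is the neighbour of RGS16 on chromosome 1, on the same strand 37.4 kb away, with the listed gene LINC01686 between them. It is an R4 gene that is not among the 10 and was looked at here after its values were seen. RGS8 was at 0.909, 0.548 and 0.662 CPM in siCtrl and at 1.56, 1.14 and 1.01 CPM in siMYCN. In siHAND2 it was at 5.16, 4.74 and 4.36 CPM and in the double knockdown at 7.08, 5.65 and 2.998 CPM. The siHAND2 and double knockdown samples were all above the samples of the other groups. Its log2 change against siCtrl was 1.76 in siHAND2, 1.82 in the double knockdown and 0.39 in siMYCN, given without a test because the gene was picked for these values. RGS4 and RGS5 are also neighbours, 65.5 kb apart on opposite strands with no listed gene between them, and 5 of the 10 genes lie on chromosome 1.

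RGS5, the R4 neighbour of RGS4 and a known marker of pericytes, stayed between 2.58 and 3.68 CPM in all 12 samples. The gene lies on chromosome 1 at 163112089 to 163291582, minus strand. The siCtrl mean was 2.82 ± 0.254 CPM, and the means of siMYCN, siHAND2 and the double knockdown were 3.39 ± 0.241, 3.07 ± 0.221 and 3.36 ± 0.328 CPM (SD, n = 3 each). As deposited it passed limma's test in 0 of the 6 comparisons, also at an unadjusted p under 0.05, and its log2 change was 0.20 in siMYCN (95% interval -0.03 to 0.44, adjusted p = 0.179). Rescaled, its change of 0.47 in the double knockdown passed (adjusted p = 7.5e-04). The rescaled double knockdown was also above siMYCN (0.26, adjusted p = 0.0385) and siHAND2 (0.25, adjusted p = 0.0472). The 7 other pericyte markers summed to 49.3 to 51.1 CPM in siCtrl and to 12.6 to 18.6 CPM in the double knockdown, and their part in the RGS5 values was not tested. RGS5 overlaps the listed gene LOC101928404 on the other strand, and the use of strand in the counting is not given in the sources used here, so reads of that gene could enter its value.

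RGS3, an R4 gene that also encodes long isoforms with a PDZ domain, rose in every knockdown. It lies on chromosome 9 at 116207009 to 116360024, plus strand. Its siCtrl samples were at 11.8, 11.3 and 11.4 CPM. The siMYCN samples were at 17.9, 16.9 and 17.4 CPM, the siHAND2 samples at 17.3, 18.0 and 18.7 CPM, and the double knockdown samples at 26.7, 20.2 and 15.7 CPM. All 9 knockdown samples were above all siCtrl samples, and the single knockdowns overlapped with each other. The log2 change was 0.56 in siMYCN (limma adjusted p = 0.00162), 0.61 in siHAND2 (adjusted p = 5.3e-04) and 0.78 in the double knockdown (adjusted p = 9.7e-06), with an SE of 0.13 each. As deposited, the double knockdown was not shown to differ from siMYCN (0.22, 95% interval -0.05 to 0.49) or from siHAND2 (0.17, interval -0.09 to 0.44). Rescaled, the double knockdown samples were at 26.9, 23.4 and 21.6 CPM, and they were higher than siMYCN by 0.55 (adjusted p = 3.5e-05) and than siHAND2 by 0.36 (adjusted p = 0.00152). Without the double knockdown replicate 3, these differences on the deposited scale were 0.40 and 0.35 (adjusted p = 0.00243 and 0.00898), and without its replicate 1 they were 0.04 and -0.01 (adjusted p = 0.755 and 0.924).

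RGS2, an R4 protein known for its preference for Gq alpha subunits, passed limma's test in 0 of the 6 comparisons as deposited, and in 1 (siHAND2 against siCtrl) at an unadjusted p under 0.05. Its samples lay between 11.1 and 16.6 CPM, and the gene lies on chromosome 1 at 192778169 to 192781408, plus strand. The siCtrl mean was 15.5 ± 1.55 CPM, and the siMYCN, siHAND2 and double knockdown means were 13.5 ± 0.840, 12.8 ± 1.47 and 15.1 ± 1.97 CPM. Every group overlapped with siCtrl. In siHAND2 the log2 difference was -0.26 (95% interval -0.50 to -0.01, limma adjusted p = 0.0815). It passed without the double knockdown replicate 1 or 3 (adjusted p = 0.0468 and 0.0414), and rescaled it was -0.11 (adjusted p = 0.481). In the double knockdown the log2 difference from siCtrl was -0.04 as deposited and 0.30 rescaled, where it passed (adjusted p = 0.0445). Rescaled, the double knockdown was also above siMYCN (0.47, adjusted p = 0.00536) and siHAND2 (0.40, adjusted p = 0.0142).

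In the R12 subfamily, RGS10 fell in siMYCN, and RGS12 rose in siMYCN and in the double knockdown. RGS10 is a small protein that acts on the Gi family and is best known from microglia and platelets. It lies on chromosome 10 at 121259339 to 121302223, minus strand. The RGS10 samples were at 13.2, 10.8 and 13.6 CPM in siCtrl and at 7.44, 7.01 and 8.07 CPM in siMYCN, with no overlap. In siHAND2 they were at 13.2, 14.5 and 13.6 CPM and in the double knockdown at 11.2, 9.02 and 11.02 CPM. The log2 change in siMYCN was -0.67 (SE 0.11, limma adjusted p = 7.1e-05), to 59.8% of the siCtrl mean. The double knockdown samples were all above those of siMYCN (log2 difference 0.42, adjusted p = 0.00308) and all below those of siHAND2 (-0.38, adjusted p = 0.0109). The latter call was lost without the siHAND2 replicate 2 (adjusted p = 0.0555) or the double knockdown replicate 2 (adjusted p = 0.0837). The difference from siHAND2 did not pass after rescaling (-0.19, adjusted p = 0.192), whereas that from siMYCN did (0.74, adjusted p = 1.1e-04). Against siCtrl the double knockdown did not pass (-0.25, adjusted p = 0.0607). Without the double knockdown replicate 1, without the double knockdown replicate 3 or without the siCtrl replicate 2 it did (-0.30, -0.29 and -0.34, adjusted p = 0.0231, 0.0288 and 0.022), and after rescaling it was at 0.09 (adjusted p = 0.532). The 7 blood cell markers together summed to at most 0.985 CPM in any sample, and their part in the RGS10 values was not tested.

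RGS12 encodes a large protein with PDZ, Ras-binding and GoLoco domains besides its RGS domain. It lies on chromosome 4 at 3315874 to 3441641, plus strand. Its samples were at 22.7, 23.1 and 22.1 CPM in siCtrl, at 31.3, 31.4 and 29.998 CPM in siMYCN, at 24.6, 26.6 and 26.5 CPM in siHAND2 and at 38.9, 35.3 and 27.3 CPM in the double knockdown. All knockdown samples were above all siCtrl samples. The log2 change was 0.43 in siMYCN (limma adjusted p = 0.00566) and 0.55 in the double knockdown (adjusted p = 2.1e-04). In siHAND2 it was 0.19 (95% interval -0.05 to 0.43, adjusted p = 0.205), which passed after rescaling (0.34, adjusted p = 2.8e-04). As deposited it also passed without the double knockdown replicate 3 (adjusted p = 0.0453). The double knockdown was above siHAND2 by 0.36 (adjusted p = 0.0161), a call lost without the siHAND2 replicate 1 (adjusted p = 0.0665) or the double knockdown replicate 2 (adjusted p = 0.0660). Its excess over siMYCN was 0.11 as deposited (adjusted p = 0.408) and 0.45 rescaled (adjusted p = 1.7e-05).

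RGS14, which like RGS12 carries a GoLoco motif that binds inactive Gi alpha subunits, was at a low level. It lies on chromosome 5 at 176784844 to 176799600, plus strand. It was at 1.79, 1.67 and 1.38 CPM in siCtrl and at 2.51, 2.00 and 2.17 CPM in the double knockdown, with no overlap. The log2 change was 0.30 (limma adjusted p = 0.0295) as deposited and 0.55 (adjusted p = 4.8e-04) rescaled. Without the double knockdown replicate 1 or the siCtrl replicate 3 the deposited change was 0.24 and did not pass (adjusted p = 0.0766 and 0.139). In siMYCN the RGS14 mean was 1.83 ± 0.108 CPM and in siHAND2 1.65 ± 0.242 CPM, and neither passed.

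RGS17, an RZ protein that acts on Gz and other Gi family members, rose in siMYCN. It lies on chromosome 6 at 153332032 to 153452390, minus strand. Its siCtrl samples were at 3.22, 2.74 and 3.35 CPM, its siMYCN samples at 4.91, 5.66 and 4.73 CPM, its siHAND2 samples at 3.54, 2.85 and 3.45 CPM and its double knockdown samples at 4.24, 4.20 and 4.17 CPM. The siMYCN and double knockdown samples were all above the siCtrl and siHAND2 samples. The log2 change was 0.57 in siMYCN (limma adjusted p = 3.9e-04) and 0.35 in the double knockdown (adjusted p = 0.0103; 0.0620 without the siCtrl replicate 2). In siHAND2 it was 0.06 (95% interval -0.17 to 0.30, adjusted p = 0.694). siMYCN was above siHAND2 by 0.51 (adjusted p = 0.00115). Rescaled, the change against siCtrl was 0.57 in siMYCN and 0.63 in the double knockdown (limma adjusted p = 7.6e-04 and 1.4e-04). Which of these changes was larger therefore depends on the scale.

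RGS7, the neuronal R7 member, was at 7.85, 7.55 and 8.45 CPM in siCtrl, 9.21, 8.72 and 9.11 CPM in siMYCN, 6.61, 6.18 and 6.93 CPM in siHAND2 and 7.31, 7.85 and 6.78 CPM in the double knockdown. The siMYCN samples were all above and the siHAND2 samples all below those of siCtrl, with log2 differences of 0.16 and -0.24 that did not pass (limma adjusted p = 0.251 and 0.0672). The siHAND2 difference passed without the double knockdown replicate 1 or 3 (adjusted p = 0.0233 and 0.0260), and rescaled it was -0.10 (adjusted p = 0.375). Between the single knockdowns, siMYCN was above siHAND2 by 0.40 (adjusted p = 0.00417). As deposited, the double knockdown was below siMYCN (-0.27, adjusted p = 0.0307), a call lost without any one of the siMYCN replicates or without the double knockdown replicate 3 (adjusted p = 0.0569 to 0.0912). Rescaled, that difference was 0.04 (adjusted p = 0.706), so its direction depends on the scale. RGS7 occupies 240938814 to 241520531 of chromosome 1 on the minus strand. It overlaps MIR3123 on the other strand. GNB5, the obligate partner of the R7 subfamily, was named after its values were seen and is given without a test. It rose from 7.77 ± 0.917 CPM in siCtrl to 11.3 ± 0.412 in siMYCN (log2 change 0.50).

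**Figure D3:**
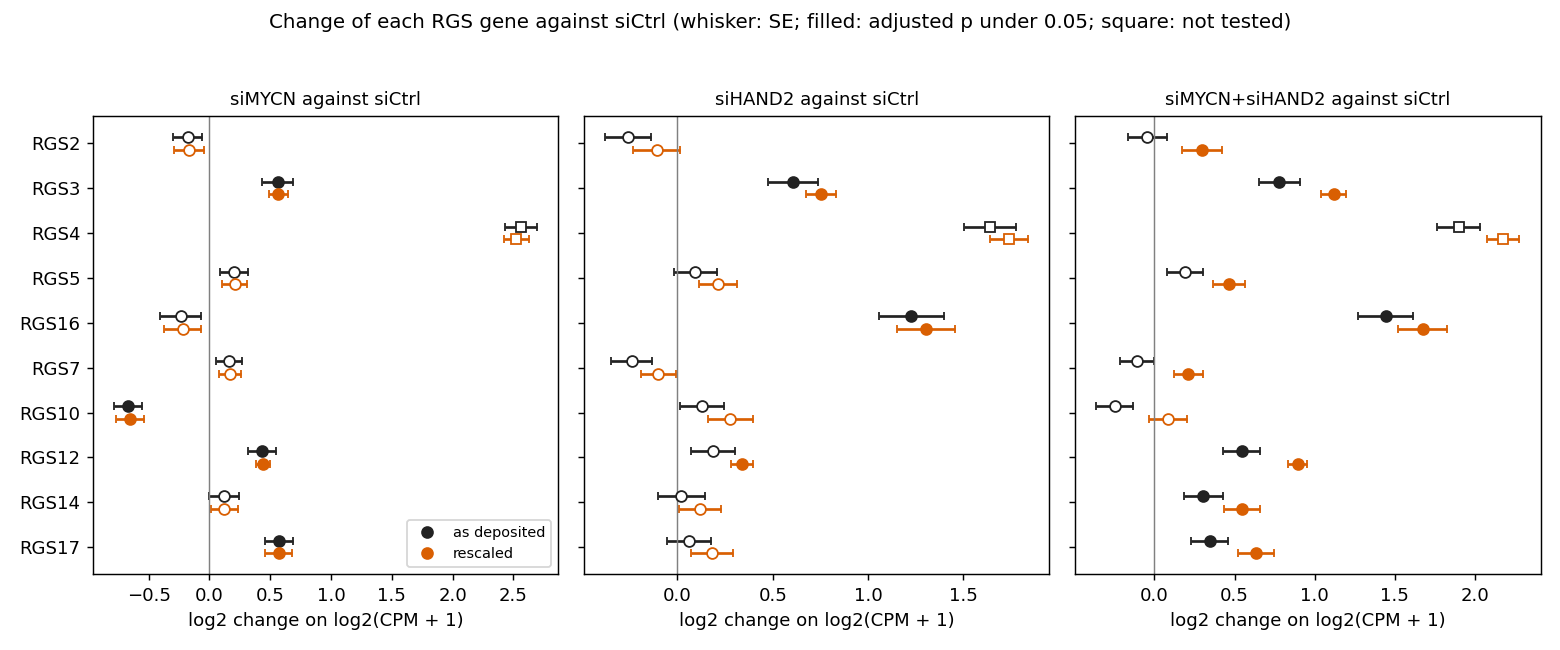
Log2 change of each RGS gene against siCtrl on log2(CPM + 1), as deposited (black) and rescaled (orange), with SE; filled symbols passed an adjusted p under 0.05, and the RGS4 squares were not tested. RGS3 lies to the right of 0 in all panels, RGS16 in the siHAND2 and double knockdown panels, and RGS10 to the left of 0 at -0.67 in siMYCN.

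Counted over the 9 tested genes, siMYCN against siCtrl gave 3 rises (RGS3, RGS12 and RGS17) and 1 fall (RGS10), beside 17.4% of all tested genes called higher and 16.3% called lower. In siHAND2 against siCtrl, RGS3 and RGS16 rose and 0 of the 9 fell by limma (2 fell at an unadjusted p under 0.05, RGS2 and RGS7), beside backgrounds of 12.3% higher and 30.4% lower. The double knockdown enters this comparison only through the shared estimate of spread. Without its replicate 3, RGS12 was also called higher, and RGS2 and RGS7 were called lower. Without its replicate 1, 2 were higher and 2 lower, the latter again RGS2 and RGS7. In the double knockdown against siCtrl 5 rose (RGS3, RGS12, RGS14, RGS16 and RGS17) and 0 fell (1 at an unadjusted p under 0.05, RGS10), beside 17.4% higher and 50.1% lower. Rescaled, 8 of the 9 rose there, all but RGS10, beside 37.8% higher and 32.9% lower. The median log2 change of the 9 was 0.16, 0.09 and 0.30 in these comparisons, against 0.01, -0.14 and -0.28 over all tested genes, and rescaled it was 0.17, 0.21 and 0.55. The comparisons with siCtrl share the same control samples. Leaving out RGS16, which passed the filter through the groups where it is high, 1 of 8 genes rose in siHAND2 and 4 of 8 in the double knockdown, with medians of 0.08 and 0.25. Rescaled, 2 and 7 of the 8 rose, beside 26.0% and 37.8% of all tested genes called higher. Without the double knockdown replicate 3, 6 of the 9 were called in the double knockdown against siCtrl, 5 higher and 1 lower, and without its replicate 1, 4 were higher and 1 lower. The shares of all genes called in fits with a replicate left out are not given. Those counts are therefore not set against a background and are not read as particular to RGS genes.

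The double knockdown against siMYCN gave 2 rises (RGS10 and RGS16) and 1 fall (RGS7), beside 8.92% higher and 50.0% lower over all tested genes. Against siHAND2 it gave 1 rise (RGS12) and 1 fall (RGS10), beside 8.75% higher and 31.5% lower. After rescaling 7 of the 9 rose in each of these comparisons and 0 fell, also at an unadjusted p under 0.05, beside 30.1% and 26.1% of all genes called higher. Without the double knockdown replicate 3, 4 were called against siMYCN, all higher, and 4 against siHAND2, 3 of them higher. Without its replicate 1 the counts were 2 higher and 1 lower in each, and without its replicate 2 limma called 0 of the 9 against siHAND2 (4 higher and 1 lower at an unadjusted p under 0.05). As above, no shares over all genes are given for these fits. siMYCN against siHAND2 gave 2 genes higher in siMYCN (RGS7 and RGS17) and 2 lower (RGS10 and RGS16), beside 26.1% higher and 8.98% lower, and the counts were again 2 and 2 after rescaling. RGS16 passed the filter only through siHAND2 and the double knockdown. Leaving it out, the double knockdown against siMYCN gave 1 rise and 1 fall among 8 genes, and rescaled 6 rises. In siMYCN against siHAND2, 2 of the 8 were then higher and 1 lower on either scale.

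In the double knockdown RGS3, RGS4, RGS12 and RGS16 were each highest in replicate 1 and lowest in replicate 3, which also had the highest and lowest share of reads in listed genes. For RGS12 the spread between these samples fell from an SD of 5.90 CPM to 1.66 CPM on rescaling, and for RGS16 from 1.78 to 1.34 CPM. It also fell for RGS3 and RGS4, and it rose for RGS2, RGS5, RGS7, RGS10, RGS14 and RGS17. For RGS2 it rose from 1.97 to 3.52 CPM and for RGS10 from 1.22 to 2.49 CPM. The part of that share in these values was not tested beyond the rescaling.

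Genes whose pattern over the 12 samples was most like that of RGS4 were sought among 1951 genes with a mean of at least 5 CPM and group means that span at least 1 on the log2 scale. They were TP53INP1, a stress-response gene induced by p53 (Pearson r = 0.971 on log2(CPM + 1)), SAMD4A, an RNA-binding translational repressor (0.963), PLEKHA6 (0.956), SVOP, a synaptic vesicle protein (0.956), TMEM151B (0.951) and PRPH, the neuronal intermediate filament peripherin (0.944). The samples fall into 4 groups and share library depth and scale, so these are descriptions. TP53INP1 went from 35.7 ± 1.17 CPM in siCtrl to 92.5 ± 2.14 in siMYCN, 67.4 ± 7.30 in siHAND2 and 84.8 ± 13.3 in the double knockdown. PRPH went from 56.6 ± 2.29 to 145 ± 1.65, 109 ± 1.60 and 149 ± 46.1 CPM. SAMD4A went from 2.69 ± 0.434 to 8.02 ± 0.766, 4.71 ± 0.370 and 5.70 ± 0.690 CPM. Of the RGS genes, RGS3 (r = 0.81), RGS12 (0.80), RGS17 (0.78) and RGS5 (0.74) were the most like RGS4 as deposited, and RGS10 was the most unlike (-0.62). Rescaled, their order changed to RGS17 (0.79), RGS3 (0.79), RGS12 (0.76) and RGS5 (0.66), and RGS10 was at -0.35.

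Among the 11 remaining genes of the R4, R7, R12 and RZ subfamilies, 3 passed the filter. RGS8 is given above. RGS19, an RZ gene, fell in the double knockdown from 5.67 ± 0.370 to 2.52 ± 0.732 CPM (log2 change -0.94). RGS20, also of the RZ subfamily, rose there from 1.03 ± 0.166 to 2.18 ± 0.345 CPM (0.64). RGS9, an R7 gene under the filter, was at 0.193, 0.365 and 0.471 CPM in siCtrl and at 1.19, 1.70 and 1.25 CPM in siMYCN, with no overlap and no test. RGS18 was listed at 0 in all 12 samples. These genes were named after their values were seen, so their changes are given without a test.

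The proteins that RGS proteins act on and beside were followed through 11 lists of 83 genes, 55 of which were tested. In siMYCN 17 rose and 1 fell, in siHAND2 10 rose and 13 fell, and in the double knockdown 13 rose and 26 fell. Over all tested genes 17.4% were called higher and 16.3% lower in siMYCN, 12.3% and 30.4% in siHAND2, and 17.4% and 50.1% in the double knockdown. The medians were 0.17, -0.11 and -0.13, against 0.01, -0.14 and -0.28 over all tested genes. Rescaled, the counts were 26 and 4, 21 and 11, and 27 and 14, beside 25.4% and 22.4%, 26.0% and 24.8%, and 37.8% and 32.9% of all genes, so the balance in the double knockdown turned with the scale. The genes named next were called in the double knockdown and are given on the deposited scale, and a call lost on rescaling is stated.

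Of 5 tested Gi family alpha subunits, which inhibit adenylyl cyclase and are the main substrates of most RGS proteins, 2 rose and 2 fell in the double knockdown, beside 17.4% and 50.1% of all tested genes. GNAZ rose from 14.7 ± 0.574 to 23.7 ± 6.01 CPM (log2 change 0.62, limma adjusted p = 1.8e-04) and was also called in siMYCN, at 24.0 ± 0.768 CPM. GNAO1 rose from 32.9 ± 7.97 to 48.0 ± 8.51 CPM (0.54, limma adjusted p = 0.0123). That call was lost without the siCtrl replicate 3 (0.35, adjusted p = 0.117) or the double knockdown replicate 2 (0.41, adjusted p = 0.0866). GNAI3 and GNAI1 fell by 0.48 and 0.47, and neither passed after rescaling. Of the Gq and the Gs and G12 families, 2 and 3 alpha subunits were tested, and GNA11, GNA13 and GNA12 fell by 0.46, 0.41 and 0.27. None of these 3 passed after rescaling, and GNA12 was then at 0.07. The GNA12 call was also lost when any of 11 replicates was left out in turn (adjusted p = 0.0503 to 0.209), and without the double knockdown replicate 3 its change was -0.14.

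Of 8 beta and gamma subunits, 1 rose and 4 fell in the double knockdown, near the 17.4% and 50.1% of all tested genes. GNG2 rose from 19.7 ± 0.614 CPM to 42.7 ± 1.79 in siMYCN, 26.2 ± 0.998 in siHAND2 and 42.5 ± 8.38 in the double knockdown, and was called in each (log2 change 1.08, 0.40 and 1.06). GNG12 fell in each, from 78.4 ± 3.48 to 55.2 ± 3.61, 49.0 ± 3.38 and 28.9 ± 3.99 CPM (-0.50, -0.67 and -1.42). GNB4 fell from 64.0 ± 2.38 to 29.0 ± 5.62 CPM in the double knockdown (-1.13). These calls held after rescaling.

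Among effectors, KCNJ6, a subunit of the potassium channels that beta-gamma pairs open, was at 0.732 ± 0.111 CPM in siCtrl and rose to 9.39 ± 0.504 CPM in siHAND2 and 10.3 ± 1.17 CPM in the double knockdown (log2 change 2.59 and 2.70), and to 1.29 ± 0.253 in siMYCN (0.40). KCNJ6 passed the filter through the groups where it is high, and with no filter the adjusted p was 9.4e-06, 8.9e-07 and 0.0416 in this order. The siMYCN call was lost without the siCtrl replicate 2 (adjusted p = 0.0567) or the siMYCN replicate 1 (adjusted p = 0.0721). PLCB1, a phospholipase C activated by Gq, moved in opposite directions: it rose in siMYCN from 17.1 ± 0.792 to 30.3 ± 1.66 CPM (0.79) and fell to 6.36 ± 0.455 in siHAND2 (-1.30) and 4.12 ± 0.632 in the double knockdown (-1.83). PLCB3 fell by 0.57 in the double knockdown. Of 7 adenylyl cyclases, the enzymes that make cyclic AMP, 4 rose and 2 fell there, beside 17.4% and 50.1% of all tested genes. ADCY5 and ADCY1 rose by 0.73 and 0.53, ADCY3 fell by 0.96, and ADCY9 fell by 0.42, which did not pass after rescaling.

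Of 14 other proteins with an RGS-like domain, 1 rose and 8 fell in the double knockdown, beside 17.4% and 50.1% of all tested genes, and rescaled 6 rose and 4 fell, beside 37.8% and 32.9%. GRK5, a receptor kinase, rose from 11.1 ± 0.690 to 18.6 ± 1.98 CPM in siMYCN, 20.2 ± 2.15 in siHAND2 and 17.4 ± 3.78 in the double knockdown. GRK3, another receptor kinase, was called higher in siMYCN (0.35, limma adjusted p = 0.0488), a call lost when any of 7 replicates was left out in turn (0.26 to 0.41, adjusted p = 0.0554 to 0.248), and fell in siHAND2 (-0.69) and in the double knockdown (-1.09). ARHGEF1, whose protein speeds the turning off of G13, fell by 0.76. Among arrestins and GoLoco proteins, GPSM2, which binds Gi alpha subunits at the cell cortex, fell from 67.2 ± 2.06 to 32.2 ± 1.31 CPM in siHAND2 (-1.04) and 22.7 ± 5.09 in the double knockdown (-1.55), while GPSM1 rose by 0.36, or by 0.20 without passing when the double knockdown replicate 1 was left out (adjusted p = 0.0558). ARRB2, an arrestin, fell by 0.28 there and was at 0.05 after rescaling, without passing. Its call was lost when any of 4 replicates was left out in turn (adjusted p of 0.0860 or higher).

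**Figure D4:**
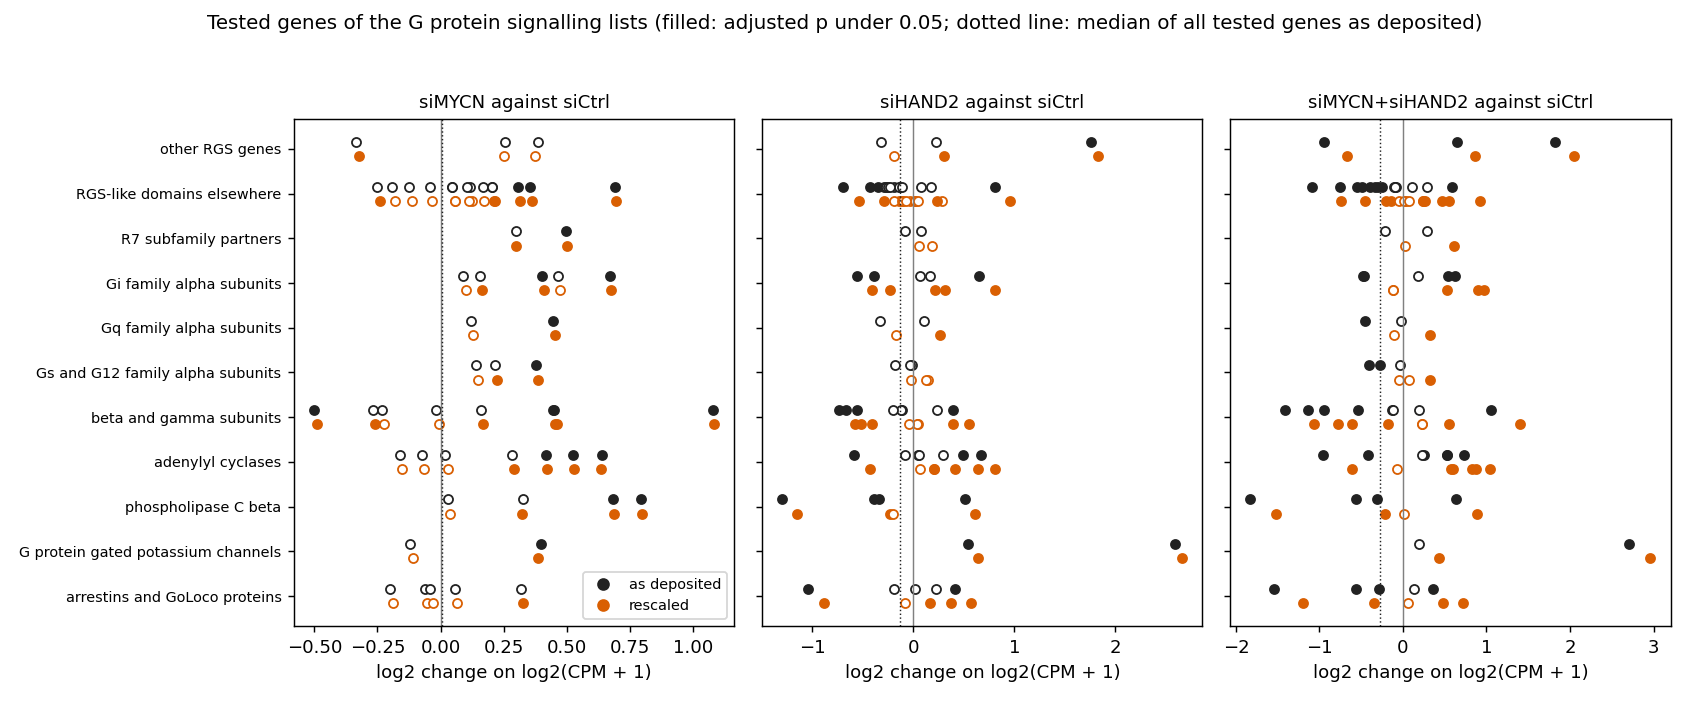
Log2 change against siCtrl of each tested gene of the 11 G protein lists (one row per list), as deposited (black) and rescaled (orange); filled points passed an adjusted p under 0.05 and the dotted line is the median of all tested genes as deposited. KCNJ6 lies far to the right in siHAND2 and the double knockdown (2.59 and 2.70) and PLCB1 far to the left (-1.30 and -1.83), and rescaled points lie to the right of the deposited points in those panels.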

How the data were processed

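RNA sequencing values of 12 samples were used. Per the submitters' processing notes, STAR 2.5.1 and Partek were used with hg19 (GRCh37), and the counting tool, annotation and use of strand are not given in the sources used here. The authors deposited CPM, with a constant of 0.0001 on every value. The CPM of the listed genes fall short of the full CPM total in each sample, so the denominator includes other reads, and low values were not all whole reads, so no count test was run. Groups and replicate numbers came from the sample titles.

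Values were analysed as log2(CPM + 1), so changes of low genes are understated. limma 3.58.1 in R 4.3.3 (lmFit, eBayes with trend) was fitted to all 12 samples for 12680 genes with a mean of at least 1 CPM, with 8 residual degrees of freedom. All groups share the same estimate of a gene's spread, so the p-value of a comparison also carries the spread of groups outside it. P-values are two-sided with Benjamini-Hochberg adjustment over all genes tested in a comparison, and an adjusted p under 0.05 is termed called. The fit was tested on simulated data. Rescaling divided each sample by the median, over genes with a mean of at least 5 CPM, of its ratio to the gene's geometric mean.

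The members and gene lists were chosen with earlier results of these data known. Named list genes are the 2 largest rises and 2 largest falls per list among genes called in the double knockdown with a mean of at least 5 CPM, together with both targets and the 6 genes most like RGS4. Same-numbered samples deviated from their group means together for siMYCN with siCtrl (r across genes 0.147 to 0.440) and with siHAND2 (0.137 to 0.330), where the number was taken as a pairing, and not in every pair of the other comparisons. The p-values given per gene come from fits with group alone, so they do not use that pairing, and the replicate block was used only among the alternatives. Alternatives were another pseudocount, filter, threshold, trend and scale, only the compared groups, the replicate block, and each replicate left out. RefSeq supplied promoter sequence, and exon lengths came from GENCODE release 44 on GRCh37. Listed genes spanning over 5000000 bases were left out when overlaps were sought.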

Additional observations from a re-analysis of the deposited data

Results flagged for a closer look

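RGS4 drew attention because every sample moved one way under siHAND2 with the control siRNA and the opposite way with siMYCN. The siHAND2 samples were all above siCtrl (log2 change 1.64), and the double knockdown samples were all below siMYCN (-0.66). The difference between these effects was -2.31 on the log2(CPM + 1) scale. It was not tested, because this value chose the genes. Rescaled, the 2 changes were 1.74 and -0.35, in the same directions.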

How the results depend on the processing

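As deposited, 4, 2, 5, 3, 2 and 4 of the 9 tested genes were called in siMYCN, siHAND2 and the double knockdown against siCtrl, the double knockdown against siMYCN and against siHAND2, and siMYCN against siHAND2. Rescaling by the median ratio gave 8, 7 and 7 calls in the 3 comparisons of the double knockdown, with the replicate block as well (where siHAND2 against siCtrl gave 4), and rescaling to the sum over listed genes gave 6 against siMYCN and 7 against siHAND2. RGS2 then turned to 0.30 or, with the sum, 0.29 in the double knockdown against siCtrl, RGS7 to 0.21, GNA12 to 0.0737 or 0.0643 and ARRB2 to 0.0544 or 0.0453, and against siMYCN RGS5 turned to 0.26 and RGS7 to 0.0429, the values being equal with the block. The replicate block alone, a pairing only for siMYCN with siCtrl or siHAND2, gave 4, 2, 6, 3, 3 and 4 calls. A filter of 5 CPM, which removes members, left 1 call in siHAND2 against siCtrl, 2 in the double knockdown against siCtrl and 2 in siMYCN against siHAND2. A threshold of 0.01 left 3 in the double knockdown against siCtrl and 0 against siHAND2. Fits with only the compared groups gave 5 in siHAND2 against siCtrl and 0 in the double knockdown against siHAND2, where no filter gave 1 and no trend 4, and the cause was not tested. Leaving out each replicate gave 2 to 5 calls in siHAND2 against siCtrl and 0 to 4 in the double knockdown against siHAND2, without the share over all genes beside them. The RGS4 interaction was -2.84 with a pseudocount of 0.1, -2.09 rescaled (with or without the block), -2.13 by the sum, and -2.45 to -2.12 with a replicate left out. Counts over all genes, added after seeing the data, moved most for the interaction (508 as deposited): 88 with no filter, 169 at a threshold of 0.01, 780 and 796 rescaled, 1282 with the block, 1264 with both, and 263 to 4443 with a replicate left out, the highest without the double knockdown replicate 1. siMYCN against siCtrl (4273) gave 2761 at 0.01, 6474 with block and rescaling and 6963 with only the compared groups, and siMYCN against siHAND2 (4443) gave 2890 at 0.01 and 6730 with only the compared groups. The G protein lists in siMYCN (18 calls) gave 10 with no filter, 11 at 0.01, 30 with either rescaling, 32 with the block added, 36 with only the compared groups and 28 without the double knockdown replicate 3, and in siHAND2 (23) 35 with block and rescaling. At 3 reads, worth 0.0467 to 0.095 CPM, no member was near the counting limit.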
